A study of Mus musculus with 11 samples.

Results

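The glucose transporter gene *Slc2a1* and 9 genes of glycolytic enzymes, *Hk1*, *Hk2*, *Pfkp*, *Pfkl*, *Aldoa*, *Pgk1*, *Eno1*, *Pkm* and *Ldha*, were followed across 4 murine cell lines that model melanoma progression. They were chosen by name, with earlier results of these data known, and all 10 had a row among the 14272 genes with deposited values. Melan-a is a spontaneously immortalized line of nonmalignant melanocytes, grown with the phorbol ester PMA at 200 nM (2 libraries, replicates 2 and 3). The lines 4C (non-tumorigenic and pre-malignant), 4C11- (non-metastatic melanoma) and 4C11+ (metastatic melanoma) arose from melan-a through repeated cycles in which attachment was prevented, and they were grown without PMA (3 libraries each), so the medium and the step away from melan-a cannot be told apart. Melan-a and 4C11+ have an epithelial morphology, 4C and 4C11- are mesenchymal-like, and each line is a single derived line of cells whose replicates are cultures of that line. Values are the deposited log2 CPM, the log2 of a gene's read count scaled to the size of its library, from total RNA sequencing. They look further adjusted by a quantile normalization, so they are not plain scaled counts. A difference of 1 is read as a 2-fold difference in RNA level.

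Glycolysis splits glucose into pyruvate in the cytosol and yields ATP and NADH. Glucose enters through transporters such as GLUT1 (*Slc2a1*), is trapped as glucose 6-phosphate by hexokinases (*Hk1*, *Hk2*), and is committed to the pathway by phosphofructokinases (*Pfkp*, *Pfkl*, and *Pfkm*, which was not among the 10). Aldolase (*Aldoa*) cleaves the hexose, phosphoglycerate kinase (*Pgk1*) and pyruvate kinase (*Pkm*) make ATP, enolase (*Eno1*) makes phosphoenolpyruvate, and lactate dehydrogenase A (*Ldha*) turns pyruvate into lactate and restores NAD+. Many tumor cells make lactate even with oxygen present, and several of these genes are known targets of hypoxia-inducible factors (HIF), which bind the core letters ACGTG or GCGTG. Only RNA was measured here, and neither glucose uptake nor enzyme activity was assayed.

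In the windows of 250 bases before the RefSeq start sites (GRCm38.p6), the core ACGTG or GCGTG stood on either strand in 14 of the 17 windows of the 10 genes (82.4%), beside 38.6% of all 32851 windows in the table and 55.5% of the 12737 windows of genes with a deposited value. The palindrome CACGTG holds the core on both strands and so counts as a pair of overlapping matches. It was in 6.02% of all windows, in 8.20% of those of genes with a deposited value, and in 1 of the 17 windows (5.88%). Below are 3 of these windows, written 5′ to 3′ on the strand of the gene with the core in capitals. They were chosen because *Ldha* and *Pgk1* were higher in 4C11+ than in both mesenchymal-like lines, whereas *Hk2* passed the test in no comparison. *Ldha* lies at chr7:46845554-46845803 on the plus strand with 5 matches, the first beginning at -145 (-1 is the base before the start site), *Pgk1* at chrX:106186850-106187099 on the plus strand with 2 matches, beginning at -150 and -131, and *Hk2* at chr6:82774455-82774704 on the minus strand with 2 matches, beginning at -226 and -52.
Ldha: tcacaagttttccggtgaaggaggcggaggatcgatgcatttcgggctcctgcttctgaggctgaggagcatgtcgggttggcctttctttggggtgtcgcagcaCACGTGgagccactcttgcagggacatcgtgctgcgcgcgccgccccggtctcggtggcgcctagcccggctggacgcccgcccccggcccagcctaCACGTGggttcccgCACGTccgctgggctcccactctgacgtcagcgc
Pgk1: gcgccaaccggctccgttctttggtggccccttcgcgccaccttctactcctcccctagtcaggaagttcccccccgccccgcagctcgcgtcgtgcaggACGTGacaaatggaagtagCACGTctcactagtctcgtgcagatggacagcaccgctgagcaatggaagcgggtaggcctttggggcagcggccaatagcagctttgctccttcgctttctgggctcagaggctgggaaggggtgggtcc
Hk2: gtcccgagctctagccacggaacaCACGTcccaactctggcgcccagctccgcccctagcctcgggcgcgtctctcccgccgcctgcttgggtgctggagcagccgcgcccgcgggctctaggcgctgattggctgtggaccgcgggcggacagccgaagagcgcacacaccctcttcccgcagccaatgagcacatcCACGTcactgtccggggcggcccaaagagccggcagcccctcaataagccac
RefSeq holds a second *Ldha* start site, whose window had 1 match, and the windows of nearby start sites of *Eno1* and *Aldoa* overlap each other. A match is a description of the letters and not a bound site, and it occurred at *Hk2* as it did at *Pgk1*.

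Depth was estimated from the single-read steps among low values at 3500000 to 7420000 reads per library, so all 10 genes lay far above the counting limit. The libraries share their highest value, as after a quantile normalization, so these depths are approximate. The libraries of a line had a Pearson r of 0.888 to 0.981 over genes. 4C11+ replicates 1 and 2 were far closer than any other pair of a line, with a chi-square per gene of 3.50 against 24.4 to 107, still above sampling noise, and were kept as separate samples. The summed level of 7 melanocyte markers was 1744 to 8960 CPM in melan-a, 10598 to 12884 CPM in 4C11+, and between 3.01 and 11.5 CPM in every 4C and 4C11- library, and the summed level of the 3 fibroblast markers with a value (of 7 listed, *Col1a1*, *Pdgfra* and *Pdgfrb*) was 2240 to 2577 CPM in 4C, 1934 to 2181 CPM in 4C11-, and 19.6 to 205 CPM in melan-a and 4C11+ together. Both lists therefore moved with the split between epithelial and mesenchymal-like lines in each result below, and their part in the results was not tested. Of the markers of other cells, 2 of 5 for leukocytes had a value and summed to 82.9 CPM in melan-a replicate 2 (mainly *Cd68*) against 3.90 to 8.65 CPM elsewhere, 1 of 4 for endothelium (*Cdh5*) reached 92.9 to 172 CPM in 4C11-, and 1 of 5 for keratinocytes (*Krt10*) stayed at or below 2.80 CPM. Tyrosinase (*Tyr*), a defining melanocyte marker, was at only -0.25 and 1.29 log2 CPM in melan-a against 8.39 to 8.70 in 4C11+ and held 0 reads in 4C11-, while *Krt10* and *Cdh5* held 0 reads in 4C11+. *Pmel*, another of the melanocyte markers, was also low in melan-a, at 2.41 and 2.95 log2 CPM. It was at 0.60 to 2.54 in 4C11- and at 11.72 to 12.20 in 4C11+. The melan-a libraries stood apart from each other (chi-square per gene 75.9), with a fibroblast sum of 205 CPM in replicate 2, and calls that rest on one of them are given with and without it. 4C11- replicate 1 stood apart too, with a chi-square per gene of 61.2 and 107 against 4C11- replicates 2 and 3. Those 2 replicates had 24.8 between them.

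Together the 10 genes took 0.698 and 0.913% of the CPM of the melan-a libraries, 0.492 to 0.638% for 4C, 0.517 to 0.612% for 4C11- and 0.933 to 1.06% for 4C11+. Every 4C11+ library thus lay above all others, and every 4C and 4C11- library lay below both melan-a libraries. Per kilobase of exon, the mean level over the lines was 7.96 to 8.93 log2 CPM per kb for *Aldoa*, *Pgk1*, *Eno1*, *Pkm* and *Ldha* and 3.63 to 4.66 for the transporter, the hexokinases and the phosphofructokinases, so the genes from the aldolase step on were the abundant ones. Line means differed most for *Pfkp* (a range of 1.74 log2 units), *Eno1* (1.66) and *Hk1* (1.53), and least for *Pkm* (0.42) and *Slc2a1* (0.59). In bulk RNA, fewer cells with a transcript and less of it per cell cannot be told apart.

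**Figure D1:**
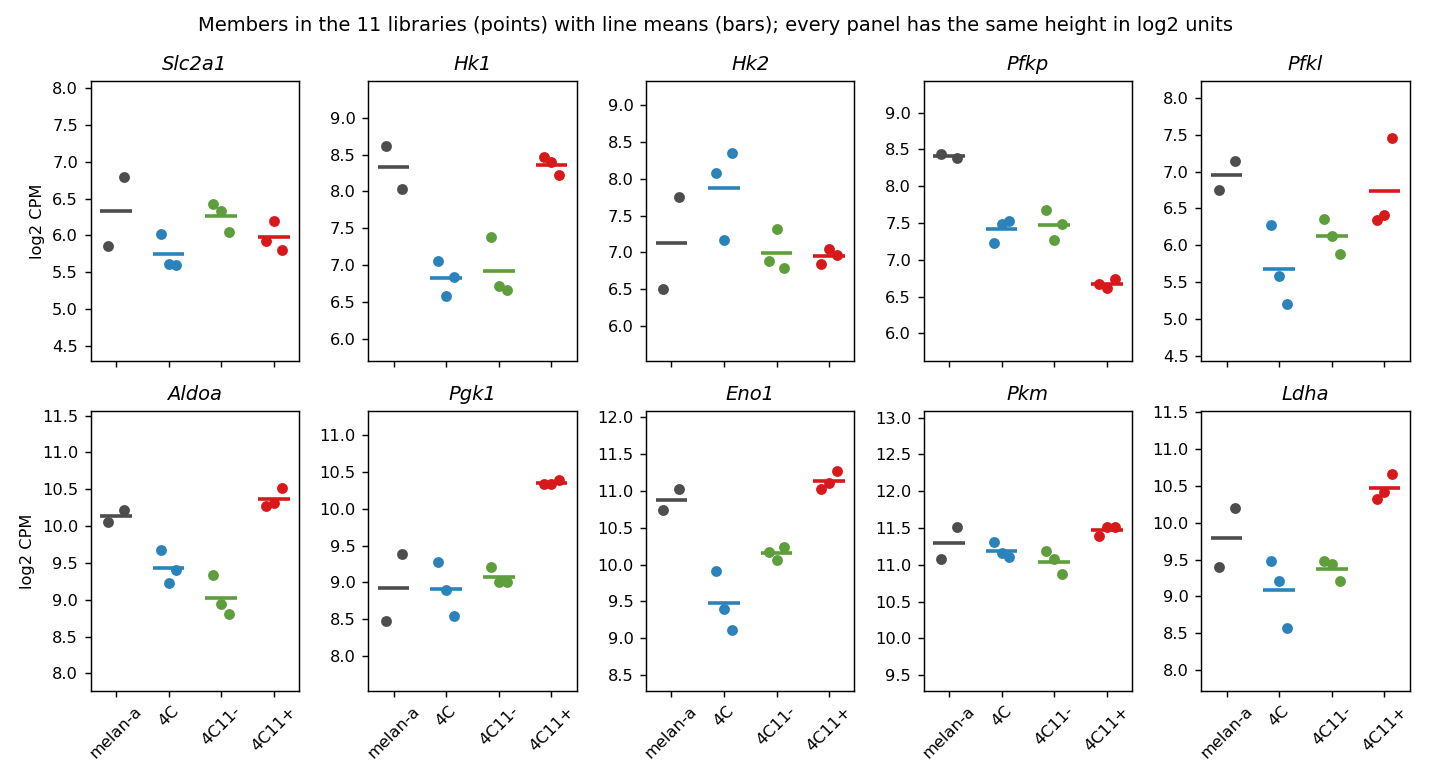
Log2 CPM of the 10 genes in the 11 libraries, by line (x axis), with points for libraries and bars for line means, and panels of equal height in log2 units. *Hk1*, *Aldoa* and *Eno1* are high at both ends of the progression and low in between, *Pgk1* is high in 4C11+ alone (10.34 to 10.38), and *Pfkp* is lowest in 4C11+ (6.61 to 6.74).

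*Slc2a1* (chr4:119108711-119137983, plus strand, GRCm38 as are the positions below) did not pass the test, a Benjamini-Hochberg adjusted p under 0.05 over all genes in a limma fit, in any of the 7 comparisons between lines. Its level was 5.86 and 6.80 log2 CPM in melan-a, 6.02, 5.61 and 5.60 in 4C, 6.43, 6.34 and 6.05 in 4C11-, and 5.92, 6.20 and 5.80 in 4C11+. The ranges of the lines overlapped except that all 4C11- libraries lay above all 4C libraries, with a difference of 0.53 (95% interval -0.06 to 1.12, limma adjusted p = 0.445). 4C11+ differed from 4C11- by -0.30 (95% interval -0.89 to 0.29), and 4C from melan-a by -0.59 (95% interval -1.25 to 0.07). Without melan-a replicate 2 the latter was -1.05 with a limma adjusted p of 0.0468.

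The hexokinases followed different courses. *Hk1* (chr10:62268855-62379908, minus strand), the broadly expressed form, stood at 8.62 and 8.03 log2 CPM in melan-a, at 7.05, 6.58 and 6.84 in 4C, at 7.38, 6.71 and 6.67 in 4C11-, and at 8.46, 8.40 and 8.22 in 4C11+. No mesenchymal-like library reached an epithelial one. *Hk1* fell by 1.50 from melan-a to 4C, a 2.83-fold difference (SE 0.28, limma adjusted p = 0.00321), and it rose by 1.44 from 4C11- to 4C11+ (SE 0.25, limma adjusted p = 0.00111), while 4C11+ and melan-a differed by 0.03 (95% interval -0.58 to 0.64). Its difference of -1.41 between 4C11- and melan-a passed with all libraries (limma adjusted p = 0.00508) and was -1.11 with an adjusted p of 0.0501 without melan-a replicate 2. *Hk2* (chr6:82725025-82774454, minus strand), the inducible form of muscle and many tumors, stood at 6.50 and 7.75 log2 CPM in melan-a, at 8.08, 7.17 and 8.36 in 4C, at 6.88, 7.32 and 6.78 in 4C11-, and at 6.84, 7.04 and 6.97 in 4C11+. The 4C libraries lay above all 4C11+ libraries, and the other lines overlapped. No difference of *Hk2* passed, the largest being -0.92 between 4C11+ and 4C (95% interval -1.69 to -0.14, limma adjusted p = 0.0703), whose adjusted p was 0.0323 without melan-a replicate 2, 0.0324 without melan-a replicate 3 and 0.0234 without 4C replicate 2. By length, *Hk1* made up 60.6% ± 20.8 (SD, n = 2) of the CPM per kb of both hexokinases in melan-a. The corresponding share was 25.6% ± 6.03 for 4C, 40.1% ± 9.18 for 4C11- and 64.9% ± 2.96 for 4C11+ (SD, n = 3 each). The share was 19.7 to 31.7% over the 4C libraries and 62.4 to 68.2% over the 4C11+ libraries.

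The phosphofructokinases were divided as well. *Pfkp* (chr13:6579768-6648777, minus strand), the platelet form, was measured at 8.44 and 8.39 log2 CPM in melan-a, 7.23, 7.49 and 7.52 in 4C, 7.68, 7.27 and 7.49 in 4C11-, and 6.67, 6.61 and 6.74 in 4C11+. Melan-a stood above every other library and 4C11+ below every other library. *Pfkp* fell by 0.999 from melan-a to 4C (SE 0.20, limma adjusted p = 0.0061) and by a further 0.80 from 4C11- to 4C11+ (SE 0.18, limma adjusted p = 0.0062), and 4C and 4C11- differed by 0.06 (95% interval -0.34 to 0.46). Against melan-a it was lower by 1.74 in 4C11+, a 3.34-fold difference (SE 0.20, limma adjusted p = 0.000216). Its exons share bases with *Pitrm1* on the other strand, which was at 7.35 in both melan-a and 4C11+, and the strand setting of the authors' counting is not given in the sources used here. *Pfkl* (chr10:77986947-78010083, minus strand), the liver form, was measured at 6.75 and 7.15 in melan-a, 6.27, 5.58 and 5.20 in 4C, 6.36, 6.13 and 5.88 in 4C11-, and 6.34, 6.41 and 7.46 in 4C11+. All 4C libraries lay below melan-a and 4C11+, and 4C11+ replicate 3 stood about 1 unit above the other 4C11+ libraries. The fall of 1.26 from melan-a to 4C (SE 0.39, limma adjusted p = 0.0481) was close to the threshold and was lost without either melan-a library, 4C replicate 2 or 3, 4C11- replicate 2 or 3, or 4C11+ replicate 1 or 2, with differences of -1.02 (without 4C replicate 3) to -1.46 (without melan-a replicate 2) and adjusted p-values of 0.0543 to 0.198. The rise of 1.05 from 4C to 4C11+ (SE 0.35, limma adjusted p = 0.038) was lost when 4C replicate 2 or 3, 4C11- replicate 2, or 4C11+ replicate 2 or 3 was left out, and it was 0.69 (adjusted p = 0.125) without 4C11+ replicate 3. Beside them *Pfkm*, the muscle form, was lower in 4C11+ than in 4C11- by 1.18 (a log2 difference of -1.18, limma adjusted p = 0.00619). Of the CPM per kb of the 3 forms, *Pfkm* held 58.4% for melan-a, 72.8% for 4C, 66.5% for 4C11- and 46.7% ± 3.80 for 4C11+ (SD, n = 3), and *Pfkl* held 17.9%, 10.6%, 14.7% and 36.0% ± 7.09 (SD, n = 3). The *Pfkl* share was higher in each 4C11+ library (31.9 to 44.2%) than in any other library. These shares rest on exon lengths pooled over all transcripts of a gene (13401 bases for *Pfkp*). By CPM without length, *Pfkp* exceeded *Pfkm* in every library but 4C replicates 1 and 3. In melan-a *Pfkp* was at 348 and 335 CPM and *Pfkm* at 291 and 150 CPM.

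**Figure D2:**
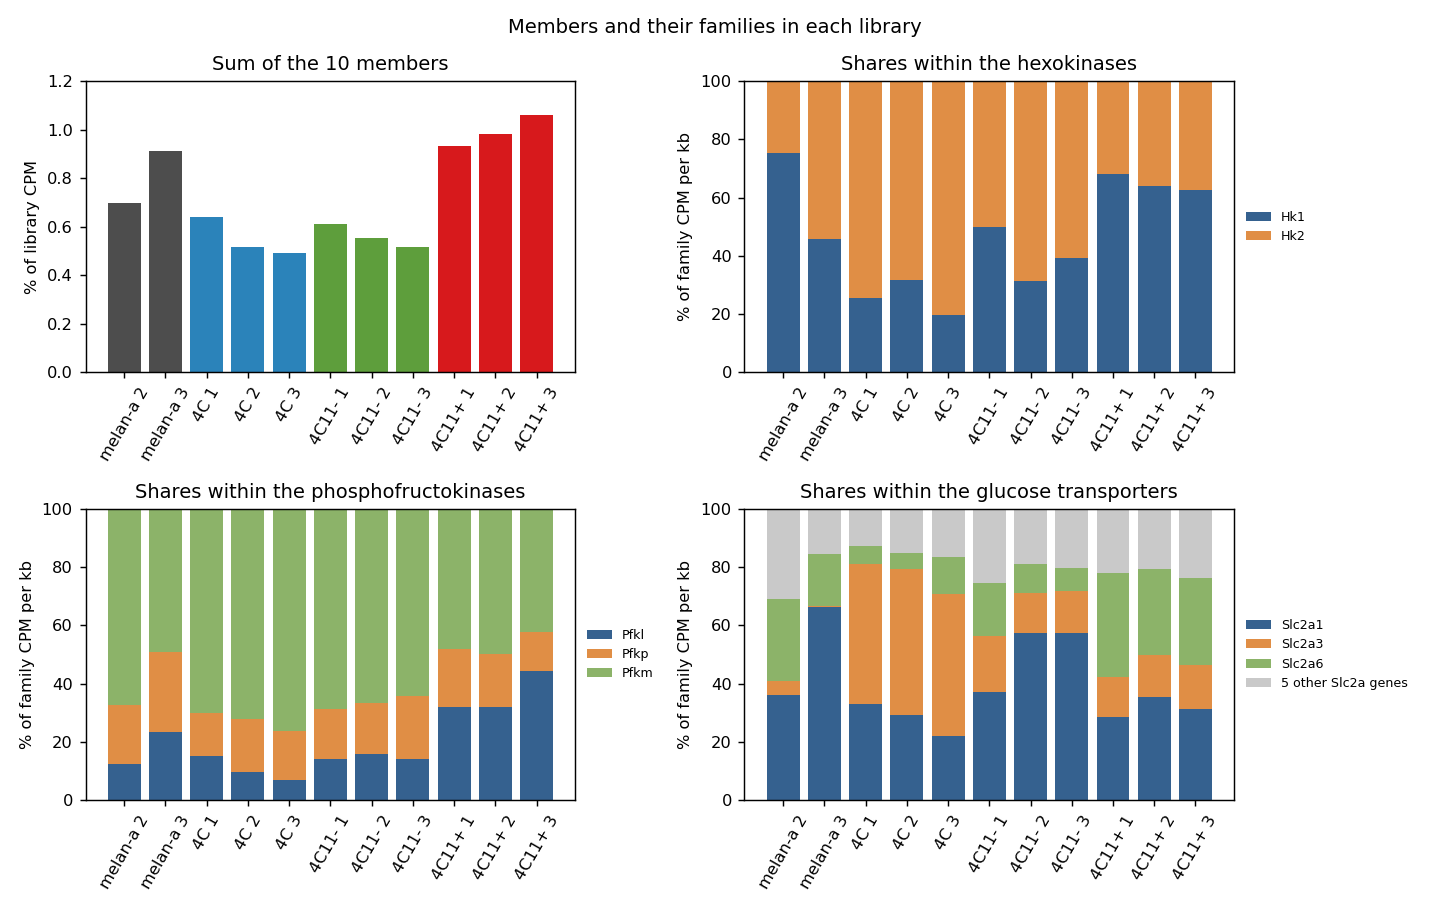
Share of library CPM taken by the sum of the 10 genes, and composition of the hexokinase, phosphofructokinase and glucose transporter families in % of the family's CPM per kb of exon, for each of the 11 libraries (x axis). The sum is 0.933 to 1.06% in 4C11+ and at most 0.638% in 4C and 4C11-, and *Slc2a3* takes 48.2 to 50.0% of the transporters in 4C.

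*Aldoa* (chr7:126795234-126800751, minus strand) was at 10.06 and 10.22 log2 CPM in melan-a, 9.68, 9.23 and 9.41 in 4C, 9.34, 8.94 and 8.81 in 4C11-, and 10.27, 10.31 and 10.52 in 4C11+. The epithelial libraries all lay above the mesenchymal-like ones, and 4C11+ lay above melan-a by 0.23 (95% interval -0.25 to 0.70). *Aldoa* fell by 0.71 from melan-a to 4C (SE 0.22, limma adjusted p = 0.0494), and it rose by 1.34 from 4C11- to 4C11+ (SE 0.20, limma adjusted p = 0.000328). The call of the fall was lost without either melan-a library, 4C replicate 2 or 3, 4C11- replicate 2 or any 4C11+ library, with differences of -0.60 to -0.79 and adjusted p-values of 0.0600 to 0.164. Against melan-a, 4C11- was lower by 1.11 (SE 0.22, limma adjusted p = 0.0048). The retrogene *Aldoart1*, a near-identical copy, was at most at 2.00 log2 CPM.

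*Pgk1* (chrX:106187100-106203699, plus strand) was at 8.47 and 9.38 log2 CPM in melan-a, 9.27, 8.90 and 8.54 in 4C, 9.21, 9.01 and 9.004 in 4C11-, and 10.34, 10.34 and 10.38 in 4C11+. The first 3 lines overlapped, and 4C11+ stood about 1 unit above the highest of their libraries. *Pgk1* rose by 1.28 from 4C11- to 4C11+ (SE 0.25, limma adjusted p = 0.0024), and 4C11+ exceeded 4C by 1.45 (SE 0.25, limma adjusted p = 0.000985) and melan-a by 1.43 (SE 0.28, limma adjusted p = 0.0059). Without melan-a replicate 2 the last difference was 0.97 with an adjusted p of 0.0548. 4C and melan-a differed by -0.02 (95% interval -0.63 to 0.59).

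*Eno1* (chr4:150236721-150248879, plus strand) was at 10.74 and 11.03 log2 CPM in melan-a, 9.91, 9.40 and 9.11 in 4C, 10.17, 10.06 and 10.25 in 4C11-, and 11.03, 11.11 and 11.27 in 4C11+. The lines stood apart in the order 4C, 4C11-, and then melan-a and 4C11+, which overlapped at 11.03. *Eno1* fell by 1.41 from melan-a to 4C (SE 0.24, limma adjusted p = 0.00163) and rose by 0.97 from 4C11- to 4C11+ (SE 0.21, limma adjusted p = 0.00469). The step between them, 0.69 from 4C to 4C11- (SE 0.21), did not pass over all genes (limma adjusted p = 0.151) and was 0.91 with an adjusted p of 0.0409 without 4C replicate 1. The difference of -0.72 between 4C11- and melan-a did not pass either (limma adjusted p = 0.0674, and 0.0273 or 0.0428 without 4C replicate 1 or 3).

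*Pkm* (chr9:59656368-59679375, plus strand) was the most abundant of the 10 per kilobase and the least variable between lines, at 11.07 and 11.51 log2 CPM in melan-a, 11.31, 11.15 and 11.11 in 4C, 11.19, 11.07 and 10.87 in 4C11-, and 11.39, 11.51 and 11.51 in 4C11+. *Pkm* passed in no comparison, although the 4C11+ libraries lay above all of 4C and 4C11-. Between 4C11+ and 4C11- the difference was 0.42 (95% interval 0.04 to 0.80, limma adjusted p = 0.0852), and its adjusted p was 0.0498 without melan-a replicate 2 and 0.0455 without melan-a replicate 3. The gene-level values do not separate the M1 and M2 isoforms, which differ by 1 exon, and *Gm49759* (5.03 to 6.12 in the line means) overlaps *Pkm* on the same strand.

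*Ldha* (chr7:46841475-46855627, plus strand) was at 9.39 and 10.20 log2 CPM in melan-a, 9.49, 9.21 and 8.57 in 4C, 9.49, 9.44 and 9.21 in 4C11-, and 10.33, 10.42 and 10.66 in 4C11+. Every 4C11+ library exceeded all others, and the rest overlapped. *Ldha* rose by 1.09 from 4C11- to 4C11+ (SE 0.27, limma adjusted p = 0.0091), and 4C11+ exceeded 4C by 1.38 (SE 0.27, limma adjusted p = 0.00215). Between 4C11+ and melan-a the difference was 0.67 (95% interval 0.02 to 1.32, limma adjusted p = 0.152), and it was 1.08 with an adjusted p of 0.0427 without melan-a replicate 3. The difference of -0.71 between 4C and melan-a (limma adjusted p = 0.144) was -1.11 with an adjusted p of 0.0464 without melan-a replicate 2. *Ldhb*, the form that favors lactate oxidation, fell from melan-a to 4C by 1.53 (SE 0.30, limma adjusted p = 0.00448). By length, *Ldha* held 73.2% ± 13.4 (SD, n = 2) of the CPM per kb of both dehydrogenases in melan-a, with 83.6% for 4C, 82.9% for 4C11- and 89.1% ± 3.04 (SD, n = 3) for 4C11+.

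Set out by step, 5 of the 10 genes fell from melan-a to 4C (*Hk1*, *Pfkp*, *Pfkl*, *Aldoa* and *Eno1*) and the other 5 did not pass. Over all genes, 7.55% were lower and 7.64% higher, and the median difference was -0.71 for the 10 genes and -0.06 for all. The number was 3 without melan-a replicate 3, 4C replicate 2 or 3, 4C11- replicate 2, or 4C11+ replicate 1 or 2. Each time the calls of *Pfkl* and *Aldoa* were lost. From 4C to 4C11-, limma called 0 of the 10 (2 at an unadjusted p under 0.05, *Hk2* and *Eno1*), where 1.26% of all genes were higher and 0.406% lower. From 4C11- to 4C11+, *Hk1*, *Aldoa*, *Pgk1*, *Eno1* and *Ldha* rose and *Pfkp* fell, with 15.6% of all genes higher and 15.4% lower and a median of 0.79 for the 10 genes against 0.12 for all. These comparisons share lines, so they are not separate pieces of evidence.

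**Figure D3:**
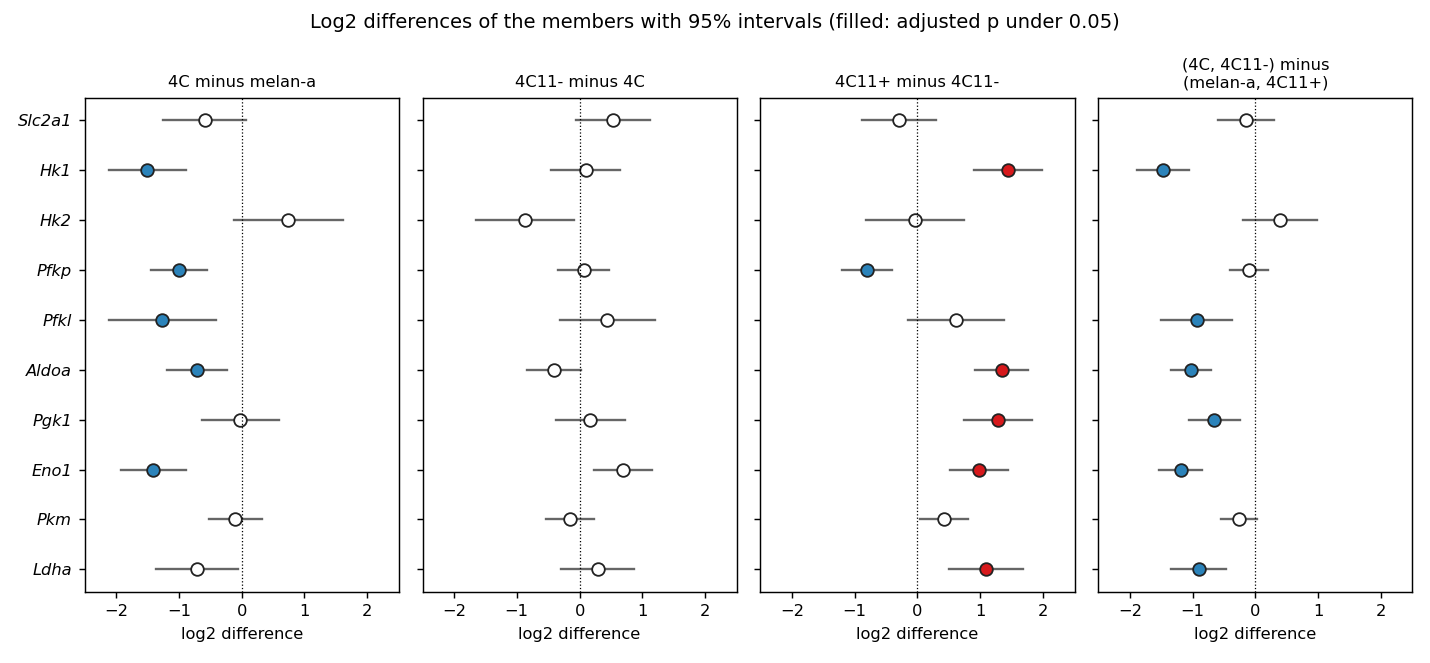
Log2 differences (points) with 95% intervals (lines) of the 10 genes in the 3 successive comparisons and between mesenchymal-like and epithelial lines, with filled points past the threshold. The 4C11- minus 4C panel has no filled point, and *Pfkp* is filled on the lower side in the first and in the third panel.

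Between lines that are not neighbors, 3 of the 10 genes were lower in 4C11- than in melan-a (*Hk1*, *Pfkp* and *Aldoa*, with 6.05% of all genes lower and 7.55% higher). In 4C11+ against 4C, 6 were higher (*Hk1* by 1.53, *Pfkl*, *Aldoa* by 0.93, *Pgk1*, *Eno1* by 1.66 and *Ldha*) and *Pfkp* was lower (-0.74, limma adjusted p = 0.0095), with 17.1% of all genes higher and 14.6% lower. In 4C11+ against melan-a, *Pgk1* was higher and *Pfkp* lower, with 8.39% of all genes higher and 7.52% lower, and the other 8 did not pass. The number called there was 1 without melan-a replicate 2 and 3 without melan-a replicate 3.

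The mesenchymal-like lines were lower than the epithelial lines in 6 of the 10 genes, and the other 4 (*Slc2a1*, *Hk2*, *Pfkp* and *Pkm*) did not pass, where 15.3% of all genes were lower and 14.3% higher. The differences were -1.47 for *Hk1* (SE 0.19, limma adjusted p = 9.43e-05), -1.19 for *Eno1* (SE 0.16, limma adjusted p = 0.000135), -1.02 for *Aldoa* (SE 0.15, limma adjusted p = 0.000242), -0.94 for *Pfkl* (limma adjusted p = 0.0177), -0.90 for *Ldha* (limma adjusted p = 0.00515) and -0.65 for *Pgk1* (limma adjusted p = 0.0208). Only *Hk1*, *Aldoa* and *Eno1* had no overlap between the 6 mesenchymal-like and the 5 epithelial libraries, where 7.06% of all genes were lower without overlap. *Pgk1* was as low in melan-a as in the mesenchymal-like lines, and without melan-a replicate 3 the calls of *Pgk1* (-0.42, adjusted p = 0.0885) and *Pfkl* (-0.84, adjusted p = 0.0666) were lost. The median was -0.78 for the 10 genes and -0.09 for all. As a description over the 11 libraries, which share their lines, the Pearson r among these 6 genes was 0.52 to 0.91 (15 pairs). In the 30 pairs with another of the 10 genes it ran from -0.74 to 0.85. The 6 were grouped by their lower level in the same lines, so a higher r among them follows from the grouping. With the line means removed, r of *Hk1* with the rest of the 6 was -0.20 (*Ldha*) to 0.55 (*Aldoa*). Pairs without *Hk1* had 0.50 (*Aldoa* and *Eno1*) to 0.93 (*Pgk1* and *Ldha*).

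The other enzymes of the pathway were taken from a list of 20 genes, of which 12 had a value. Between mesenchymal-like and epithelial lines, 7 were lower (beside 15.3% of all genes) and the other 5 did not pass, with a median of -0.995. The lower ones were *Gpi1* (glucose 6-phosphate isomerase, -1.21, SE 0.16, limma adjusted p = 0.000148), *Tpi1* (triose phosphate isomerase, -1.12, limma adjusted p = 0.000482), *Gapdh* (-1.12), *Pgam1* (phosphoglycerate mutase, -1.05), *Bpgm* (which makes 2,3-bisphosphoglycerate, -1.25, limma adjusted p = 0.00084), *Ldhb* (-0.92) and the neuronal enolase *Eno2*, which held 3 reads or fewer in every melan-a and 4C library, so that no fold is given. From 4C11- to 4C11+, 6 rose, among them *Gpi1* by 1.72 (SE 0.22, limma adjusted p = 0.000111) and *Gapdh* by 1.50, and *Pfkm* fell. Over all genes, 15.6% rose and 15.4% fell in that comparison. *Gapdh* is often used as a reference gene in such assays. From melan-a to 4C, 5 fell (beside 7.55% of all genes), led by *Ldhb* and *Bpgm* (-1.19, limma adjusted p = 0.0244). Of these, *Tpi1*, *Gapdh*, *Pgam1* and *Bpgm* were lost without 4C replicate 2 or 3, the first 3 of them also without melan-a replicate 3, *Bpgm* also without melan-a replicate 2, and *Gapdh* also without 4C11- replicate 2 or 4C11+ replicate 1 or 2 (adjusted p = 0.0575 to 0.193). The call of *Eno2* between the phenotypes was lost without melan-a replicate 3, 4C11- replicate 2 or 4C11+ replicate 3 (adjusted p = 0.0517 to 0.0691), and that of *Pgam1* from 4C11- to 4C11+ without 4C11+ replicate 2 (adjusted p = 0.0553).

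**Figure D4:**
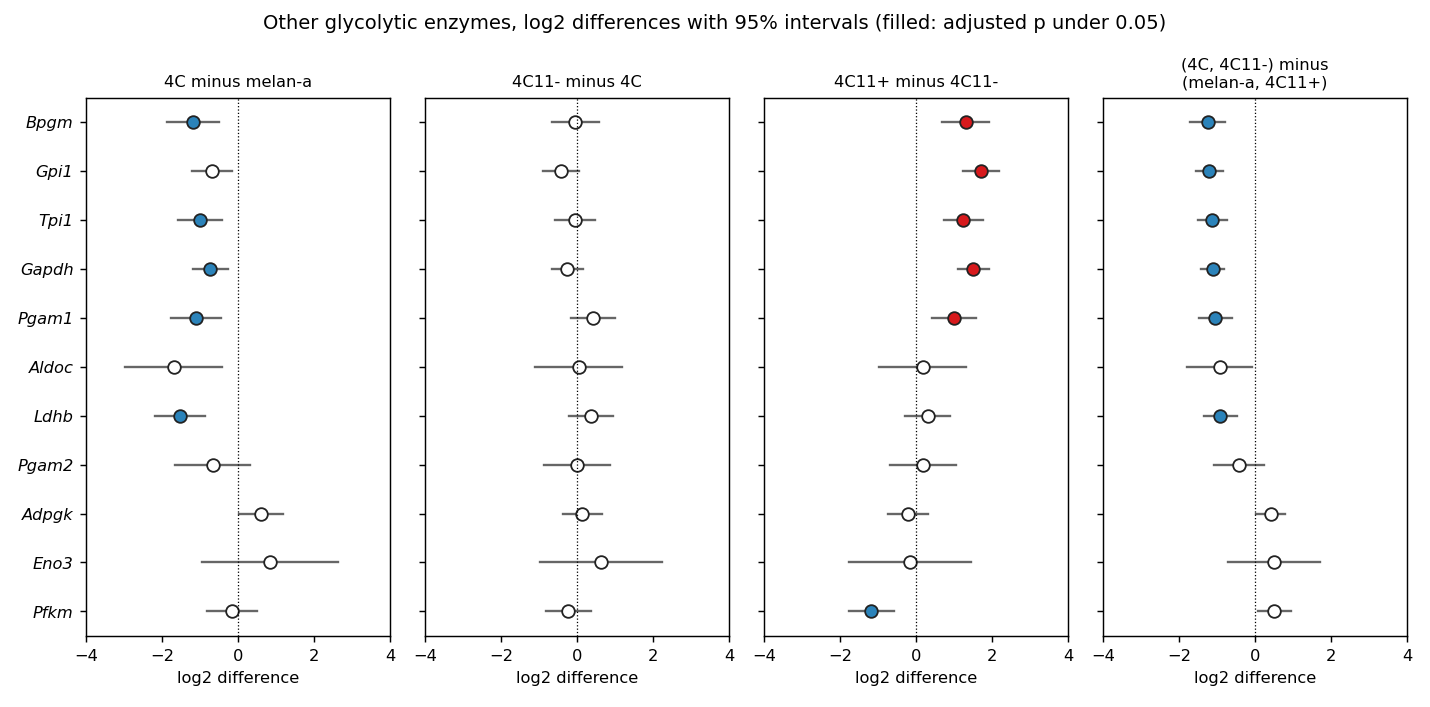
Log2 differences (points) with 95% intervals (lines) of the other glycolytic enzymes with a value, in the same 4 comparisons, with filled points past the threshold and without *Eno2*. *Bpgm*, *Gpi1*, *Tpi1*, *Gapdh* and *Pgam1* are filled on the higher side from 4C11- to 4C11+ and on the lower side between mesenchymal-like and epithelial lines.

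Of 10 other glucose transporter genes, 7 had a value. In the mesenchymal-like lines 3 were higher and 3 were lower, beside 14.3% and 15.3% of all genes. *Slc2a3*, the high-affinity transporter GLUT3, stood at 4.03 and 0.06 log2 CPM in melan-a, while the 4C libraries had 7.44 to 7.79, the 4C11- libraries 5.12 to 6.54 and the 4C11+ libraries 5.80 to 5.93. It was thus above melan-a in all 9 libraries of the derived lines, with a rise of 5.57 to 4C (SE 0.84, limma adjusted p = 0.000738) that was 3.58 without melan-a replicate 3 (adjusted p = 0.000535). *Slc2a10* held 0 reads in both melan-a libraries and 2.97 to 3.28 log2 CPM in 4C, a rise of at least 3.47 log2 units against the value of 3 reads per library. *Slc2a4*, the insulin-responsive GLUT4, held 0 reads in melan-a and was highest in 4C11- (3.20 ± 0.54, SD, n = 3). *Slc2a5*, a fructose transporter, was at 4.32 ± 0.14 log2 CPM (SD, n = 3) in 4C11+ and at most at 1.01 in any other library, and *Slc2a6* rose from 4C11- to 4C11+ by 1.85 (SE 0.54, limma adjusted p = 0.0226), a call lost without 4C11- replicate 2 or 3 or 4C11+ replicate 1 or 2 (adjusted p = 0.0622 to 0.0826). Of the CPM per kb of the 8 transporters, *Slc2a1* held 51.1% ± 21.4 (SD, n = 2) for melan-a, and then 28.0% ± 5.52 for 4C, 50.6% ± 11.7 for 4C11- and 31.8% ± 3.55 for 4C11+ (SD, n = 3 each). *Slc2a3* held 48.9% ± 0.96 in 4C (SD, n = 3) and 14.4 to 15.9% in the means of 4C11- and 4C11+.

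Among genes around the pathway, 3 of 5 of the lactate transport list with a value were lower in the mesenchymal-like lines, beside 15.3% of all genes. *Emb*, a chaperone of monocarboxylate transporters, was at 6.02 ± 0.05 log2 CPM (SD, n = 3) in 4C11+ and at 0 reads in every 4C11- library, so it was higher by at least 7.59 log2 units against 3 reads per library. *Slc16a3*, the lactate exporter MCT4, was at 2.59 to 4.15 log2 CPM in 4C11+ and at most at 1.05 in the other lines (rise of 3.70 from 4C11- to 4C11+, SE 0.71, limma adjusted p = 0.00219). *Bsg*, basigin, differed by -0.55 between the phenotypes (limma adjusted p = 0.0419). Between the phenotypes the call of *Bsg* was lost without any library but 4C replicate 3 and 4C11- replicate 1 (adjusted p = 0.0596 to 0.107), and that of *Slc16a3* without melan-a replicate 3, any 4C library, 4C11- replicate 2, or 4C11+ replicate 2 or 3 (adjusted p = 0.0554 to 0.134). Of 13 genes for pyruvate entry into mitochondria, 3 were higher and 2 lower in the mesenchymal-like lines, beside 14.3% and 15.3% of all genes. The 2 lie near that share. The pyruvate carrier *Mpc1* was lower (-1.72, SE 0.25, limma adjusted p = 0.00025), and the pyruvate dehydrogenase kinases *Pdk3* (1.45, SE 0.14, limma adjusted p = 9.01e-06) and *Pdk1* (0.79, SE 0.17, limma adjusted p = 0.00386) were higher, as was *Pdk2*, which held 2 reads in each 4C11+ library. *Pdk1* was also lower in 4C11+ than in melan-a (a log2 difference of -1.33, limma adjusted p = 0.00465). In melan-a *Pdk1* (6.68 and 6.79 log2 CPM) lay within the range of 4C and 4C11- (6.33 to 7.11). The melan-a values of *Pdk2* (2.03 and 3.80 log2 CPM) lay on either side of the range of 4C and 4C11- (2.64 to 3.44).

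In each list of this paragraph, counts between the phenotypes stand beside 15.3% of all genes lower and 14.3% higher. Counts of 1 or 2 genes in lists this short are not read as results about a list. Of 5 enzymes of fructose 2,6-bisphosphate, the activator of phosphofructokinase, *Tigar* was lower in the mesenchymal-like lines (-1.46, limma adjusted p = 0.00122) and *Pfkfb1* higher (1.25, limma adjusted p = 0.0289). *Pfkfb3* rose by 0.91 from 4C11- to 4C11+ (limma adjusted p = 0.0484). The call of *Pfkfb1* was lost without melan-a replicate 2, 4C replicate 2, or 4C11- replicate 2 or 3 (adjusted p = 0.0512 to 0.0893), and that of *Pfkfb3* without any library but those of melan-a and 4C11- replicate 1 (adjusted p = 0.0531 to 0.161). In the pentose phosphate pathway, 2 of 8 were lower, *Pgd* (-0.71, limma adjusted p = 0.0166) and *Taldo1* (-0.54, limma adjusted p = 0.0446). The call of *Taldo1* was lost without any library but 4C11- replicate 1 and 4C11+ replicate 3 (adjusted p = 0.0669 to 0.114). Both genes overlapped between melan-a and the mesenchymal-like lines and were highest in 4C11+. For *Pgd*, melan-a had 7.07 and 7.14 log2 CPM and 4C11+ 7.87 to 8.83. For glycogen metabolism, 5 of 10 were lower and *Stbd1* was higher in the mesenchymal-like lines. *Stbd1* was high in 4C11- alone (2.49 to 3.90 log2 CPM), and its 4C libraries overlapped those of melan-a. The primer protein *Gyg* differed by -2.40 (SE 0.30, limma adjusted p = 7.42e-05) and the muscle phosphorylase *Pygm* by -2.44 (limma adjusted p = 0.00981). In *Pygm*, melan-a (-1.42 and 0.40 log2 CPM) lay within the range of 4C and 4C11- (-2.44 to 0.44), and 4C11+ stood at 3.45 to 3.93. *Epm2a* held 3 reads or fewer in every 4C and 4C11- library and stood at 2.66 ± 0.60 log2 CPM (SD, n = 3) in 4C11+. *Pygb*, the brain phosphorylase, fell by 1.03 from melan-a to 4C (limma adjusted p = 0.0201), a call lost without melan-a replicate 2 (-0.78, adjusted p = 0.145) or 4C replicate 2 (adjusted p = 0.0804). Of 3 gluconeogenesis genes with a value, *Pck2* was higher (0.74, limma adjusted p = 0.032) and *G6pc3* lower (-0.74, limma adjusted p = 0.0411). In *G6pc3*, melan-a (3.96 and 4.35 log2 CPM) lay within the range of 4C11- (3.52 to 4.73), and 4C11+ stood at 4.93 to 5.37. Both melan-a libraries (7.47 and 7.88 log2 CPM) stood above every 4C library (6.90 to 7.06) in *Pck2*, and the lowest libraries were those of 4C11+ (4.61 to 5.06). The call of *Pck2* was lost without melan-a replicate 2, any 4C library, 4C11- replicate 2, or 4C11+ replicate 1 or 3 (adjusted p = 0.0526 to 0.104), and that of *G6pc3* without any library but 4C11- replicate 1 and 4C11+ replicate 3 (adjusted p = 0.0505 to 0.118). From 4C11- to 4C11+ *Pck2* fell by 2.14 and *Pcx* by 1.76. In the serine branch, 1 of 5 passed, *Phgdh*, which draws 3-phosphoglycerate out of glycolysis. *Phgdh* stood at -0.70 and 0.87 log2 CPM in melan-a against 7.45 to 8.04 for 4C, 7.68 to 8.26 for 4C11- and 8.17 to 8.82 for 4C11+, and it rose by 7.60 from melan-a to 4C (SE 0.41, limma adjusted p = 3.32e-07). *Shmt1*, a serine hydroxymethyltransferase, fell by 1.16 from 4C11- to 4C11+ (limma adjusted p = 0.0182), a call lost without 4C11+ replicate 1 (adjusted p = 0.0765).

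Of 13 transcriptional regulators with a value, 1 was higher in the mesenchymal-like lines and 2 were lower, beside 14.3% and 15.3% of all genes. These counts lie near or below those shares. *Hif1a* was at 8.09 and 8.50 log2 CPM in melan-a, with 6.63 to 7.30 for 4C, 4.59 to 7.16 for 4C11- and 7.48 to 7.95 for 4C11+, a difference of -1.49 (SE 0.39, limma adjusted p = 0.0121) with no overlap between the phenotypes. *Epas1*, which encodes HIF2A, differed by 1.28 in the other direction (SE 0.28, limma adjusted p = 0.00421). Its melan-a libraries (3.57 and 4.27 log2 CPM) overlapped those of 4C (3.84 to 4.71), and 4C11+ was lowest (2.45 to 3.06). *Ppargc1a*, a coactivator of mitochondrial genes, was at 5.82 and 5.92 log2 CPM in melan-a, held 1 read in all 4C libraries together, and stood at 3.32 ± 0.72 (SD, n = 3) in 4C11+. *Mycn* was at 1.62 ± 0.34 log2 CPM (SD, n = 3) in 4C11- and at 0 reads in 4C11+. Of 12 other HIF target genes with a value, 3 were higher and 2 lower, beside 14.3% and 15.3% of all genes, with *Ero1l* at -2.52 (SE 0.19, limma adjusted p = 1.03e-06) and *Kdm3a* at -1.04, and *Mxi1* at 1.13 and *P4ha2* at 0.92. In *Egln3* the fall from melan-a to 4C was 2.24 (limma adjusted p = 0.0192), a call lost without melan-a replicate 2 or 4C replicate 2 or 3 (adjusted p = 0.0685 to 0.160). Over all 11 lists around the 10 genes, 93 of 114 genes had a value, of which 14 were higher in the mesenchymal-like lines (14.3% of all genes) and 28 were lower (15.3% of all genes), and 29 rose (15.6% of all genes) and 18 fell (15.4% of all genes) from 4C11- to 4C11+. The 14 and the 18 lie near the shares of all genes. From 4C to 4C11- only *Mycn* and *Ppargc1a* passed, both higher, with 14 genes at an unadjusted p under 0.05, and the call of *Mycn* was lost without 4C replicate 2 (adjusted p = 0.0508) and that of *Ppargc1a* without 4C replicate 2 or 3 or 4C11- replicate 2 (adjusted p = 0.0702 to 0.0749).

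By Pearson r over the 11 libraries, a description with no test, the genes most alike in pattern were *Lrrc8d* and *Pcdh1* for *Hk1* (both 0.983), *Stau2* (0.985) and *9130008F23Rik* for *Eno1*, *Cubn* and *Gm16010* for *Aldoa*, *Foxk2* (0.984) and *Cycs*, cytochrome c, for *Pgk1*, *Emg1* and *Phb2* for *Ldha*, *Map4k2* and *Abhd14b* for *Pfkp*, and *Phlda1* and *Fbxl2* for *Pfkl*. For *Slc2a1* they were *Mtfr1* (0.967) and *Tomm5*, for *Pkm* *Zfp180* and *Ifrd2*, and for *Hk2* *Abcc4* (0.843) and *Lamtor3* (0.819), the weakest of the 10. Lines repeat across these 11 libraries, so a gene that follows the same lines ranks high.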

How the data were processed

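Total RNA of triplicate cultures was depleted of ribosomal RNA, made into stranded libraries and sequenced as paired reads. The authors trimmed the reads with Trimmomatic, aligned them with STAR to the mouse genome of Ensembl 90 (GRCm38) and counted reads per gene with Rsubread. Genes that reached 1 CPM in fewer than 4 libraries were dropped, and the rest passed through voom. The deposited values are log2 CPM, and the 11 libraries share the highest value of 13.69, as after a quantile normalization, a step the methods do not name. Read totals are not given, and depth was estimated from the step at 40 reads. Melan-a replicate 1 was not analysed here.

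The deposited log2 values were fitted as they are with limma 3.58.1 in R 4.3.3 (1 mean per line over all 11 libraries, mean-variance trend), with Benjamini-Hochberg adjustment over 14272 genes and a threshold of 0.05, two-sided, in 7 comparisons. The fit was tested on simulated data for 4C11+ against 4C11-, with 200 changed genes. A log2 change of 1 was recovered in 0% of them and a log2 change of 2 in 58%. A difference that did not pass is thus not shown to be absent. Differences below 1 were called in the real data, so the simulation does not set the limit for each gene. Per the labels the replicates are triplicate cultures, and the p-values measure only the spread between cultures of 1 line. Symbols matched 14248 genes, and 24 had none. Exon lengths, positions and overlaps are from GENCODE M21 (GRCm38) and start sites from RefSeq (GRCm38.p6). A gene's exon length covers every base annotated as exon in any of its transcripts. Shares, correlations and motif counts were computed in Python 3.11.15 with pandas 2.3.3 and NumPy 2.4.6, and figures drawn with matplotlib 3.10.9.

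The 10 genes and the lists were chosen with earlier results of these data known. From each list, up to 4 genes with the largest difference between mesenchymal-like and epithelial lines and up to 2 per successive comparison were to be named, among genes called, and the 2 genes of highest r for each of the 10. *Pfkm*, *Gapdh*, *Pgam1*, *Slc2a6*, *Pfkfb3*, the fall of *Pdk1* against melan-a and the use of *Ldhb* in the family shares fall outside this rule and were chosen after their values were seen. A gene at 0 reads in a line is given against the value of 3 reads per library. The alternatives covered a filter on low values, a further quantile normalization, centring, the variance trend and library weights. They also covered the libraries fitted, the replicate block and each library left out. Leaving out libraries for the genes of the other lists was added after the data were seen.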

Additional observations from a re-analysis of the deposited data

How the results depend on the processing

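The number of the 10 genes called in 4C against melan-a was 5 and became 3 when only genes with a mean log2 value of at least 1 were tested, when limma was fitted without a mean-variance trend, or when only the libraries of the lines compared were fitted, with *Pfkl* and *Aldoa* lost each time. In 4C11- against melan-a it was 3 and became 0 when only those 5 libraries were fitted, where *Hk1*, *Pfkp* and *Aldoa* had limma adjusted p-values of 0.0754, 0.0997 and 0.0602. Leaving out 1 library at a time gave 3 to 5 genes in 4C against melan-a, 0 to 1 in 4C11- against 4C, 6 to 7 in 4C11+ against 4C11-, 2 to 4 in 4C11- against melan-a, 6 to 8 in 4C11+ against 4C, 1 to 3 in 4C11+ against melan-a and 4 to 6 between the phenotypes. No value of the 10 genes turned its direction while called. Of the 770 values with 1 library left out 734 kept their side of the threshold, as did 463 of the 480 from the other settings. The 480 include a further quantile normalization and a centring on the library median, which could hardly move these values. With library weights *Slc2a1* (0.32), *Hk2* (-0.48) and *Pkm* (0.25) also passed in 4C11+ against 4C. The standard errors of these genes were smaller in that fit (0.12 against 0.27 for *Slc2a1*). The share of all genes called in it is not given here, so these calls are not read as particular to them. With the replicate number as a block, *Pfkl* in 4C against melan-a was -1.33 (limma adjusted p = 0.0541), and no other call of the 10 genes changed. Deviations from the line means correlated at -0.226 to 0.388 between same-numbered libraries (median 0.147, 8 of 15 pairs over 0.1) and at -0.416 to 0.340 between others (median -0.0946, 11 of 30 pairs over 0.1), and 6 of 11 libraries correlated better with their own number. Not every same-numbered pair was over 0.1 and the labels tie the numbers to nothing shared, so they were not taken to pair the libraries. Of 110 calls in the other lists, 31 were lost in at least 1 fit without 1 library and 0 were reversed, an alternative chosen after seeing the data. A further quantile normalization moved a value of the 10 genes by at most 0.00108, and centring on the library median by at most 0.00572. The deposited values were already alike between libraries, with medians within 0.0106, so neither setting could change much. How the calls depend on the normalization was thus not tested. Depth limits the genes at 3 reads or fewer in a line, for which no fitted fold is given.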
